A study of Homo sapiens with 4 samples.

Results

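The comparison set cultures of the Hep3B lineage against cultures of the Huh7 lineage. Hep3B and Huh7 are established human hepatoma lines and carry the label HCC, for hepatocellular carcinoma. The stem-like cultures derived from each, named Hep3B-C and Huh7-C, carry the label HCSC, for hepatic cancer stem cells. The members were all 4 RNA sequencing libraries of the series, 2 per lineage, with 1 library per culture. The Hep3B lineage held Hep3B and Hep3B-C, and the Huh7 lineage held Huh7 and Huh7-C, so each lineage was seen once in the parental and once in the stem-like state. No treatment was given in the labels. Of 16370 genes joined over the 4 libraries, 2021 separated the lineages in the same direction in both states by the rule given below. The libraries held 2896418 (Hep3B), 4641927 (Hep3B-C), 4537510 (Huh7) and 4333808 (Huh7-C) counts in genes, so that 3 counts were worth 0.646 to 1.04 CPM (the share of a library's gene counts, scaled to 1e+06). The parental pair was Hep3B/Huh7 and the stem-like pair Hep3B-C/Huh7-C. These pairs share no library. Each lineage stands for 1 cell line, so differences between donors, between stocks of a line and between libraries cannot be told apart from lineage.

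Hepatocytes make most plasma proteins, and hepatoma lines keep part of that program while they switch on genes of fetal liver. Albumin (ALB) is the main plasma protein of the adult liver, and alpha-fetoprotein (AFP), encoded beside it, is its fetal relative and a serum marker of hepatoma. Lines that come from different tumors are also known to differ in imprinted genes, in germline genes switched on in cancer, and in HOX genes, which record position along the body axis. Hep3B is known for the loss of functional RB1, and Huh7 is widely used as an albumin- and AFP-secreting hepatoma line.

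The labels were checked against hepatocyte genes. SERPINA1, which encodes alpha-1-antitrypsin, stood between 10113 and 40517 CPM in the 4 libraries, and the hepatocyte transcription factor HNF4A between 202 and 380.4 CPM. FGB, TF and APOA1 were detected in every library as well. ALB and AFP were low in both libraries labelled Huh7, at 482 and 1156 counts for ALB and at 26 and 12 counts for AFP. This goes against the common description of Huh7, and the reason was not tested. Markers of other cell types were near 0 for the most part. VWF and KDR, of endothelium, had at most 1 count, and CD14, of monocytes, at most 6. The summed level of 9 fibroblast and stellate cell markers was 21.4 and 12.1 CPM in Hep3B and Hep3B-C, and 45.8 and 16.6 CPM in Huh7 and Huh7-C. Among these markers, PDGFRB had 28 and 45 counts in Hep3B and Hep3B-C, and 186 and 2 in Huh7 and Huh7-C. COL3A1 had 58 counts in Huh7-C and at most 1 elsewhere, and the others had at most 18. PECAM1 had 8 to 17 counts in 3 libraries and 93 in Huh7-C. CD68 and LYZ, which many epithelial lines express, had 236 to 1254 counts. In bulk RNA, a lower level per cell and fewer cells with the transcript cannot be told apart.

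Promoter sequences are shown for 4 liver genes, because 2 of them (ALB and AFP) were high in the Hep3B lineage and 2 (FGA and FGB, which encode fibrinogen chains) in the Huh7 lineage. Each holds 250 bases before the annotated start on the gene's own strand, from RefSeq on GRCh38.p14. Capitals mark each CpG, the dinucleotide at which DNA is methylated. The windows are chr4:73404037-73404286, plus strand, chr4:73435971-73436220, plus strand, chr4:154590743-154590992, minus strand, and chr4:154562730-154562979, plus strand (the first of 2 windows listed).
ALB: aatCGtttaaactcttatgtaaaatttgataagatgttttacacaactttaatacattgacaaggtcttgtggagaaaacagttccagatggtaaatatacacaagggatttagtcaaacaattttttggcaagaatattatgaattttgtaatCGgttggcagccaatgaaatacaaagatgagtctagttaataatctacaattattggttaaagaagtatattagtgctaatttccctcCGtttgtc
AFP: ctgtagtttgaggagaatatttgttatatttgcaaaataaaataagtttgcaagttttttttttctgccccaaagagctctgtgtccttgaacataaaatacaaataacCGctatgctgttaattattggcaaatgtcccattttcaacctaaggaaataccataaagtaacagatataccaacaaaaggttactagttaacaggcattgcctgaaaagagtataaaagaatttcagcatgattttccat
FGA: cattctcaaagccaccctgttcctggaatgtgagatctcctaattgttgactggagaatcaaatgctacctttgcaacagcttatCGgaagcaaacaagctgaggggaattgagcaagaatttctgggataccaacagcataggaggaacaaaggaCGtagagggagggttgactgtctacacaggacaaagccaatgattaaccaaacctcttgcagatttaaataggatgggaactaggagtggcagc
FGB: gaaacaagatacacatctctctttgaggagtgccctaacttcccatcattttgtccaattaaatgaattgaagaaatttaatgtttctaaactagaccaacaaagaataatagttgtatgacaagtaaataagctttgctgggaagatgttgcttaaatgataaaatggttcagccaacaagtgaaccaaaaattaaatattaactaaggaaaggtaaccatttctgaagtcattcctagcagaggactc
These 4 liver promoters held 3, 1, 2 and 0 CpG in the order shown. Each number lay below the lower quartile of all windows given below. The GSTP1 window (chr11:67583562-67583811, plus strand) is shown because this gene ranked first by its less different pair in the other direction, with the same marks.
GSTP1: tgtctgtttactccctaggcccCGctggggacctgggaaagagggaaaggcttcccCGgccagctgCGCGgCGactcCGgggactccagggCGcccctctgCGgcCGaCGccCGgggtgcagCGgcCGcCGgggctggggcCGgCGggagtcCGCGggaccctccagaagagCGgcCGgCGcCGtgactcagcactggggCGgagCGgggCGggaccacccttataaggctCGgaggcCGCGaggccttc
It held 28 CpG, against a median of 20 over all windows (quartiles 11 and 27). Windows of genes higher in the Hep3B lineage and at 0 counts in both Huh7 libraries had a median of 14 CpG (118 windows), and those of the converse set a median of 19 (80 windows).

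Genes were then compared between lineages in both ways the design allows. A gene was counted as separating the lineages in both states when its CPM ratio was at least 2-fold in the same direction in the parental and the stem-like pair, and both pairs of counts differed at a false discovery rate (FDR) of 0.01 or less by the Audic-Claverie test, which covers counting error only. Of 16370 genes, 950 (5.80%) were higher in the Hep3B lineage and 1071 (6.54%) in the Huh7 lineage by this rule. Of these, 158 and 105 had 0 counts in both libraries of the other lineage. None of them was listed for that lineage, so each such 0 was filled in rather than reported. The quasi-likelihood test of edgeR took the cultures of a lineage as its 2 samples and was adjusted over 11691 genes. It called 484 genes higher in the Hep3B lineage (4.14% of those tested) and 313 higher in the Huh7 lineage (2.68%) at an FDR of 0.05 or less, 6.82% in all. Since each lineage holds a parental and a stem-like culture, the spread in this test includes the stem-like state. An exact permutation test of 2 against 2 libraries cannot go below a two-sided p of 0.33, so none was used.

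The number of calls depended on which library was left out. Without Hep3B, 984 genes were higher in the Hep3B lineage and 682 in the Huh7 lineage, and without Hep3B-C 1956 and 1631. Without Huh7 the numbers were 167 and 126, and without Huh7-C 151 and 131. When a library is left out, the spread rests on the pair that remains. Huh7 and Huh7-C had a Pearson correlation of 0.970 across genes, and Hep3B and Hep3B-C one of 0.874. In all 4 of these fits, 106 of the 484 and 90 of the 313 genes were called. None of the 797 calls changed direction in any of them.

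Ratios of the parental pair and the stem-like pair were correlated across 11948 genes (Pearson 0.636, Spearman 0.381). Genes are not independent replicates, and no p is given. Gene composition moved with these ratios. In the parental pair the log2 ratio fell with GC content (Spearman -0.362) and rose with gene length (0.407), and in the stem-like pair it rose with GC content (0.263) and had little relation to length (-0.095). The median log2 ratio over genes tested was 0.21 in the parental and -0.24 in the stem-like pair, and TMM library sizes put both within 0.01 of 0. Removal of the GC and length trends raised the calls to 659 and 509.

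**Figure D1:**
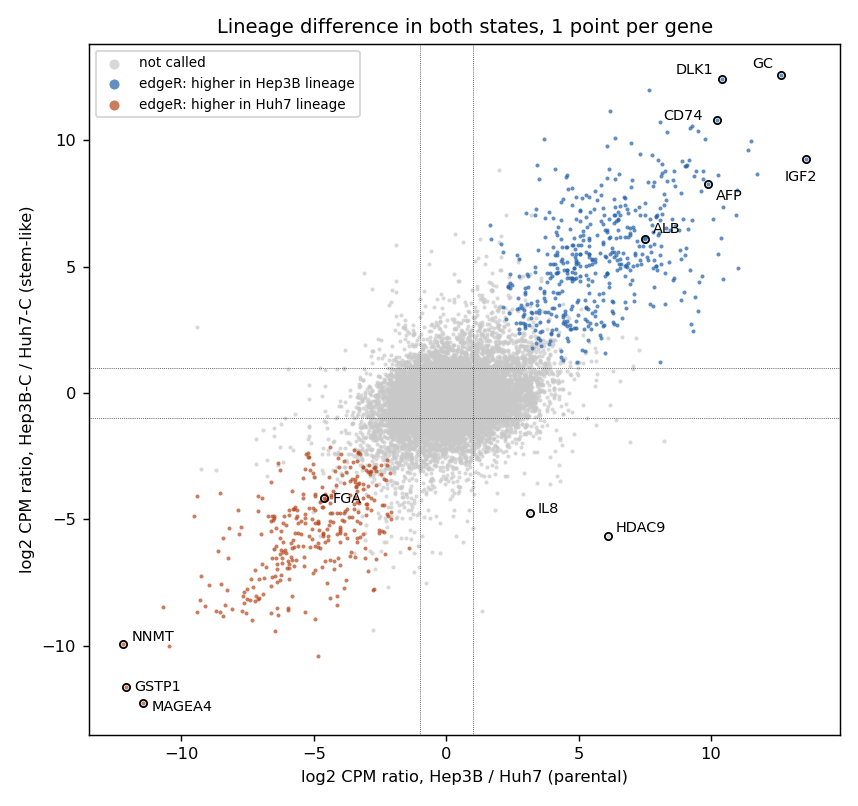
Each point is 1 gene tested, with the log2 CPM ratio Hep3B/Huh7 on the horizontal axis and Hep3B-C/Huh7-C on the vertical axis (0.5 added to each count). Blue points are the 484 genes and brown points the 313 genes called by edgeR, which lie in the corners where both ratios have the same sign, while HDAC9 and IL8 lie where the signs differ.

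Plasma protein genes of the albumin family were higher in the Hep3B lineage. ALB stood at 19541 CPM in Hep3B and 18469 in Hep3B-C, and at 106 in Huh7 and 267 in Huh7-C. The groups did not overlap, and the ratio was 184-fold in the parental pair (95% interval 168 to 202, counting error only) and 69.2-fold in the stem-like pair (65.3 to 73.4). AFP stood at 5584 and 905 CPM in the Hep3B lineage, and at 5.73 and 2.77 CPM in the Huh7 lineage. Its ratio was 975-fold (665 to 1492) and 327-fold (187 to 633). GC, the vitamin D binding protein and another member of the albumin family, had 6167 and 3271 counts in the Hep3B lineage and 1 and 0 counts in the Huh7 lineage. In the stem-like pair it was at least 1018-fold higher, taking 3 counts as the least a library can show. By edgeR the adjusted p was 0.00634 for ALB, 0.00435 for AFP and 0.00397 for GC. AFP and GC were called with any library left out, while ALB had an edgeR adjusted p of 0.066 without Huh7. AFM, the remaining member of this family, had 9 counts in Hep3B-C and 0 elsewhere.

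The 3 fibrinogen chains went the other way. Fibrinogen is the precursor of the fibrin clot, and its chains are encoded side by side on the same chromosome as the albumin family. FGA, the alpha chain, stood at 141 CPM in Hep3B and 90.0 in Hep3B-C, against 3491 in Huh7 and 1579 in Huh7-C. FGB, the beta chain, stood at 92.5 and 23.5 CPM in the Hep3B lineage against 1436 and 756 in the Huh7 lineage. Both were higher in the Huh7 lineage, by 24.8-fold and 17.5-fold for FGA and by 15.5-fold and 32.2-fold for FGB in the parental and stem-like pair. Their edgeR adjusted p was 0.0119 and 0.0163, and without Huh7 it was 0.183 and 0.171. FGG, the gamma chain, stood at 195 and 22.0 CPM against 1113 and 636, without overlap, but did not pass (edgeR adjusted p = 0.088). It passed without Hep3B (edgeR adjusted p = 0.00617) and without Hep3B-C (0.0312).

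Among the carriers and acute phase proteins as a whole, 36 of 38 listed genes were measured and 31 passed the filter on low counts. Of these, edgeR called 9 higher in the Hep3B lineage and 2 in the Huh7 lineage, against 4.14% and 2.68% of all tested genes. Of the 36 measured, 15 and 3 passed the thresholds in both pairs, against 5.80% and 6.54% of all joined genes. The list's median log2 ratio was 1.28 in the parental and 3.39 in the stem-like pair. APOH, a phospholipid-binding plasma protein, stood at 377 and 908 CPM against 23.1 and 16.4. SERPIND1, heparin cofactor II, stood at 475 and 406 CPM against 26.0 and 14.8. Both passed the test (edgeR adjusted p = 0.00962 and 0.00886), and neither did without Huh7 or without Huh7-C (adjusted p from 0.15 to 0.355). SERPINA7, the thyroxine-binding globulin, had 13 and 35 counts against 0 and 0 (edgeR adjusted p = 0.0163, and 0.264 without Huh7). Several abundant carriers did not pass. AHSG, fetuin-A, stood at 5966 and 9843 CPM against 1409.6 and 133 (edgeR adjusted p = 0.118), and TF, transferrin, at 7216 and 3347 CPM against 1547 and 319 (adjusted p = 0.17). Without Huh7 the list held 1 call and without Huh7-C 2 calls in the Hep3B direction.

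Apolipoproteins, which carry lipids in plasma, gave 0 edgeR calls among 15 tested genes (2 at an unadjusted p under 0.05, both higher in the Hep3B lineage, and 1 by DESeq2). APOA2 was the only one of 18 past the thresholds in both pairs, at 4314 and 9481 CPM against 1279 and 491 (edgeR adjusted p = 0.0818). APOA1 stood at 460.2 CPM in Hep3B and 2367 in Hep3B-C, and at 1349.9 in Huh7 and 369 in Huh7-C, so its libraries overlapped.

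Several complement and coagulation genes were higher in the Hep3B lineage. The complement cascade is made largely by liver and marks and lyses microbes, and the coagulation factors are its neighbors in plasma. Of 35 measured genes, 28 were tested, 11 were called higher in the Hep3B lineage and 0 in the Huh7 lineage (0 also at an unadjusted p under 0.05 and by DESeq2), against 4.14% and 2.68% of all tested genes, and 17 passed the thresholds of both pairs in neither direction. The median log2 ratio was 2.22 and 2.46. C4BPA and C4BPB, both chains of the complement inhibitor C4-binding protein, had 343 and 63 counts and 85 and 86 counts in the Hep3B lineage and 0 in all Huh7 libraries. MASP1, a protease of the lectin pathway, had 397 and 212 counts against 0 and 0, at least 207-fold and 66.0-fold higher. These 3 genes were called with each library left out (edgeR adjusted p of 0.0267 or less). C2, a component of the classical pathway, stood at 153 and 257 CPM against 8.37 and 5.77 (edgeR adjusted p = 0.00759), and CFB, its counterpart in the alternative pathway, at 126 and 73.9 CPM against 6.17 and 1.85 (adjusted p = 0.0108). Both lost the call without Huh7 or Huh7-C (adjusted p from 0.0837 to 0.324). One gene passed the thresholds of both pairs in the other direction, SERPING1, the C1 inhibitor, at 181 and 15.7 CPM against 818 and 127. Its libraries overlapped, and it did not pass edgeR (adjusted p = 0.28). The list kept 3 calls without Huh7 and 3 without Huh7-C.

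**Figure D2:**
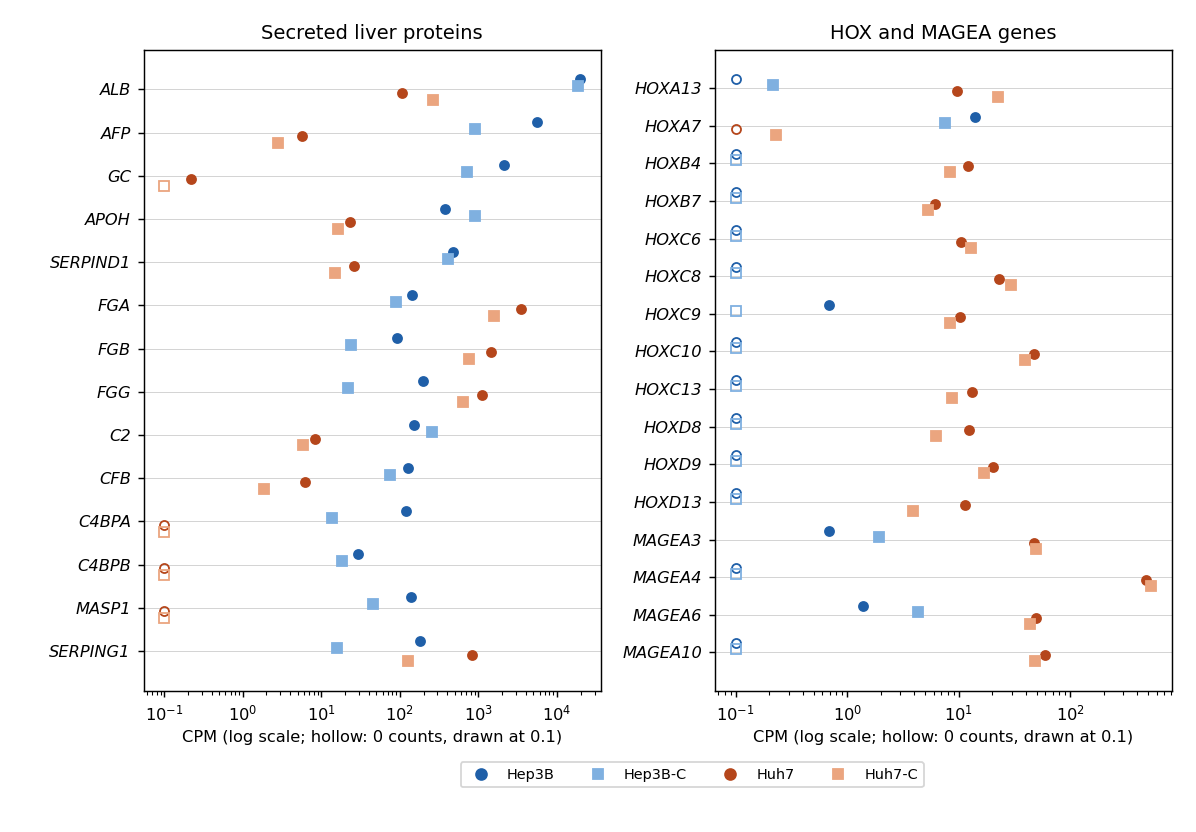
CPM of secreted liver proteins (left) and of HOX and MAGEA genes (right) in each library, on a log axis, with hollow symbols for 0 counts. ALB, AFP, GC, C4BPA, C4BPB and MASP1 were higher in both Hep3B libraries (blue), while the fibrinogen chains and most HOX and MAGEA genes were higher in both Huh7 libraries (brown).

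Several oncofetal and imprinted genes were higher in the Hep3B lineage. Many of these genes are more active in fetal than in adult liver, and imprinted genes are read from 1 parental allele in many, though not all, tissues. Of 28 measured genes, 24 were tested, 9 were called higher in the Hep3B lineage and 1 in the Huh7 lineage, against 4.14% and 2.68% of all tested genes, and 17 passed the thresholds of both pairs in neither direction. IGF2, a fetal growth factor, had 11888 counts in Hep3B and 326 in Hep3B-C, against 1 in Huh7 and 0 in Huh7-C (edgeR adjusted p = 0.00812). H19, the imprinted noncoding RNA beside IGF2, stood at 16575 and 3457 CPM against 54.9 and 14.5 (adjusted p = 0.00687). Its ratio was 302-fold (267 to 343) in the parental and 238-fold (186 to 309.6) in the stem-like pair. CDKN1C, an inhibitor of the cell cycle in the same imprinted region, had 128 and 488 counts against 3 and 1 (edgeR adjusted p = 0.00559). DLK1, an imprinted surface protein of hepatoblasts, had 437 and 2951 counts against 0 and 0, at least 228-fold and 918-fold higher. MEST had 209 and 208 counts against 0 and 0. GPC3, a surface proteoglycan used as a hepatoma marker, stood at 995 and 586 CPM against 24.5 and 25.2 (adjusted p = 0.00637). PEG10, another imprinted gene, was the call in the other direction, at 37.3 and 6.89 CPM against 98.3 and 493 (adjusted p = 0.0484). With any library left out, AFP, IGF2, H19, DLK1, MEST and CDKN1C were called. GPC3 was not called without Huh7 (adjusted p = 0.215) or Huh7-C (0.189), and PEG10 was called only without Hep3B (0.0312).

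The most extreme genes were close to absent from one lineage. Those given with 0 counts in both of its libraries were not listed for it and were set to 0. By a fixed rule, the 12 genes with the largest ratio in the less different pair were taken in each direction, among genes with at least 100 counts in both libraries of the higher lineage. In the Hep3B direction these were GC, DLK1, CD74, SLC43A3, BGN, MAL2, MAOB, CYBA, IGF2, MAPK13, NPC1L1 and MEP1A, with 172 to 11888 counts in each Hep3B library and 0 to 3 in each Huh7 library. CD74, the invariant chain of MHC class II molecules, had 382 and 957 counts against 0 and 0. SLC43A3, a purine transporter, stood at 960.2 and 349 CPM with 1 count in each Huh7 library. MAL2, which takes part in apical sorting in hepatocytes, had 853 and 419 counts, and BGN, the matrix proteoglycan biglycan, 276 and 574. CYBA, a subunit of NADPH oxidase, had 196 and 820 counts, and MAOB, a mitochondrial amine oxidase, 231 and 705. MAPK13, the kinase p38 delta, had 186 and 770 counts. None of these 5 had a count in the Huh7 lineage. NPC1L1, the transporter that takes up dietary and biliary cholesterol, had 185 and 1621 counts against 0 and 2. MEP1A, the metalloprotease meprin A alpha, had 172 and 1968 counts against 0 and 3. The edgeR adjusted p of the 12 genes ran from 0.00397 to 0.00812. The genes were picked for large ratios in these same counts, so these low values are no separate support.

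In the Huh7 direction the rule gave GSTP1, MAGEA4, PFKP, NNMT, INA, SAT2, GTSF1, PLP2, NLRP2, MAGEA10, TM4SF1 and PCK1. GSTP1, a glutathione transferase often silenced in hepatoma, had 0 counts in Hep3B and 3 in Hep3B-C, against 3459 in Huh7 and 10490 in Huh7-C. It was at least 736-fold higher in the parental pair and 3745-fold (1281 to 18164) in the stem-like pair. NNMT, which methylates nicotinamide, had 0 and 1 counts against 3714 and 1378. PFKP, the platelet form of phosphofructokinase, had 0 and 0 counts against 1119 and 485. TM4SF1, a surface protein of the tetraspanin-like family, had the highest counts left in the low lineage, with 12 and 15 against 6399 and 4838. Its ratio was 340.4-fold (195 to 659) in the parental and 345-fold (209 to 618) in the stem-like pair. PLP2, a membrane protein, had 0 and 3 counts against 1317 and 1145, NLRP2, of the NOD-like receptor family, 0 and 1 against 434 and 481, and SAT2, an acetyltransferase, 0 and 0 against 325 and 181. INA, alpha-internexin, a neurofilament protein, had 0 and 1 counts against 527 and 566. NEFH, the heavy neurofilament chain, had 0 and 0 counts against 125 and 235 (edgeR adjusted p = 0.00559). Of 5 measured neuronal intermediate filament genes, 3 were tested, and these 2 were called higher in the Huh7 lineage. The third, NES, was called higher in the Hep3B lineage, with a log2 ratio of 7.21 in the parental and 5.07 in the stem-like pair. For the 12 genes the edgeR adjusted p ran from 0.00397 to 0.00559, which again follows largely from the rule that picked them.

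**Figure D3:**
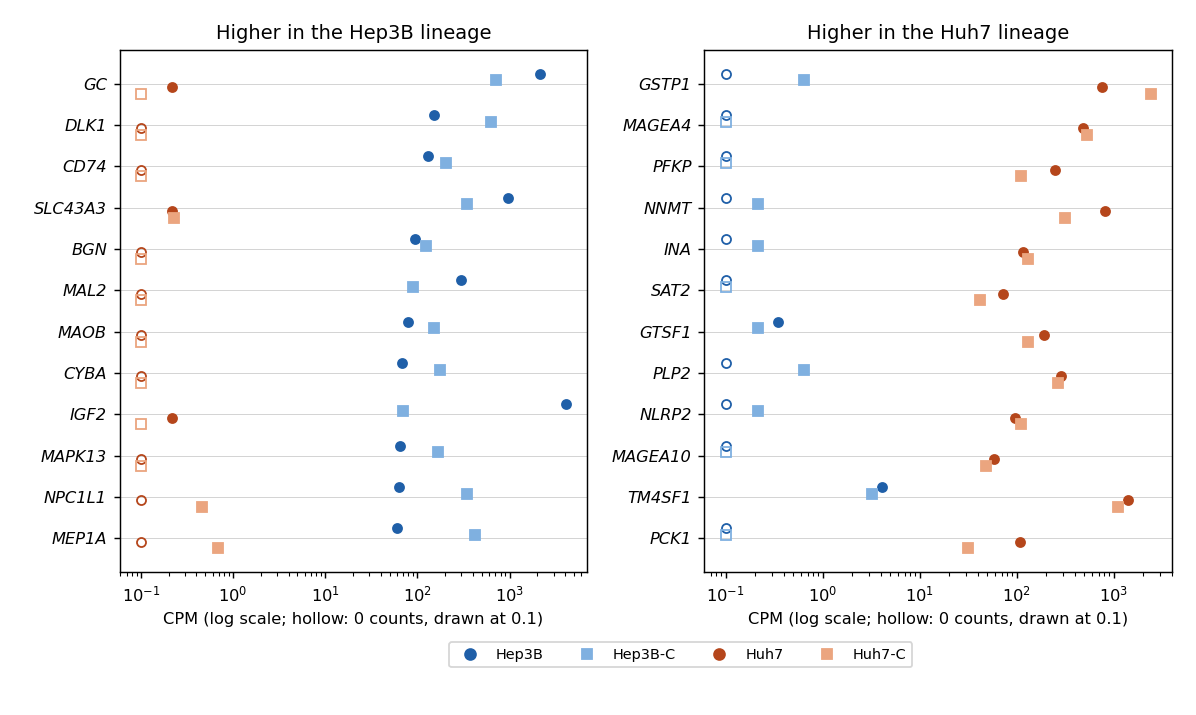
CPM of the 12 genes per direction with the largest ratio in the less different pair, in each library, on a log axis (hollow symbols: 0 counts). Genes on the left have 0 to 3 counts in each Huh7 library, and those on the right at most 15 counts in each Hep3B library.

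Cancer-testis antigens are genes normally limited to the germline, and several were read in the Huh7 lineage alone or nearly so. Of 38 listed genes, 19 were measured, and 10 of these passed the thresholds of both pairs in neither direction. The 9 genes that passed the filter on low counts did so mostly through the Huh7 libraries, so their count is a description. Of them, 7 were called higher in the Huh7 lineage and 0 in the Hep3B lineage (0 also at an unadjusted p under 0.05 and by DESeq2). Over all tested genes, 2.68% and 4.14% were called in these directions. MAGEA4 had 0 counts in both Hep3B libraries against 2193 and 2318, and MAGEA10 had 0 against 268 and 211. CTAG2 had 1 count in each Hep3B library against 133 and 137, and SAGE1 had 0 against 131 and 76. MAGEA3, MAGEA6 and MAGEA12 had 217 and 215, 225 and 191, and 226 and 182 counts in the Huh7 lineage. MAGEA12 had 7 and 51 counts in the Hep3B lineage and did not pass (edgeR adjusted p = 0.114). MAGEA3 and MAGEA6 are near-identical, so reads may have been split between them. MAGEA3 had 2 and 9 counts and MAGEA6 4 and 20 counts in the Hep3B lineage, and MAGEA6 was not called without Huh7 (edgeR adjusted p = 0.125) or Huh7-C (0.0933). The summed level of the list was 31.1 and 26.5 CPM in Hep3B and Hep3B-C and 835 and 837 CPM in Huh7 and Huh7-C. The list held 5 calls without Huh7 and 5 without Huh7-C. GTSF1, a germline factor of small RNA silencing, had 1 count in each Hep3B library against 875 and 565.

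HOX genes were examined as a family after their values had been seen. Of 6 measured HOXB, 8 HOXC and 8 HOXD genes, 2, 5 and 3 were tested. These passed the thresholds in both pairs and were called, each higher in the Huh7 lineage, against 2.68% of all tested genes. The remaining 4, 3 and 5 measured genes passed the thresholds of both pairs in neither direction. Genes at 0 in the Hep3B lineage passed the filter on low counts only through the Huh7 libraries, so these counts are a description. HOXC10 had 213 and 172 counts in the Huh7 lineage, HOXC8 104 and 127, HOXD9 93 and 73, and HOXC6 48 and 56, each against 0 and 0. These 4 were called with any library left out (edgeR adjusted p from 0.00453 to 0.0102 in the fit over all libraries). HOXC13, HOXB4, HOXB7, HOXD8 and HOXD13 also had 0 counts in both Hep3B libraries, and 17 to 60 counts in those of the Huh7 lineage, and none of these 5 was called without Huh7 (adjusted p from 0.0626 to 0.289). HOXA genes were mixed, with HOXA13 higher in the Huh7 lineage (0 and 1 against 44 and 98 counts, edgeR adjusted p = 0.0114) and HOXA7 higher in the Hep3B lineage (41 and 35 against 0 and 1, adjusted p = 0.0126). HOXA13 was not called without Huh7-C (edgeR adjusted p = 0.128), nor HOXA7 without Huh7 (0.287) or Huh7-C (0.115). The summed HOXC level was 0.691 and 0 CPM in the Hep3B lineage and 106 and 100 CPM in the Huh7 lineage.

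Genes of sugar metabolism differed in both directions. PCK1 and G6PC, which encode key steps of gluconeogenesis, were higher in the Huh7 lineage. PCK1 had 0 and 0 counts against 489 and 137 (edgeR adjusted p = 0.00559), and G6PC 3 and 2 against 1895 and 122 (adjusted p = 0.0101). HK1, a hexokinase found in most tissues outside the liver, had 0 and 1 counts against 386 and 273. SLC2A3, a glucose transporter typical of neurons, stood at 6.91 and 1.08 CPM against 622 and 817 (edgeR adjusted p = 0.00502), and SLC2A2, the hepatocyte transporter, had 55 and 19 counts against 665 and 306 (adjusted p = 0.0379). FBP1, another gene of gluconeogenesis, went the other way, with 10 and 81 counts against 0 and 0 (edgeR adjusted p = 0.0196). PKLR, the liver pyruvate kinase, stood at 28.7 and 205 CPM against 3.31 and 8.08 (adjusted p = 0.0326), and ARG1, the liver arginase, at 29.3 and 5.60 CPM against 1.32 and 0.231 (adjusted p = 0.0428). In the list of 39 measured urea cycle, amino acid and glucose genes, 30 were tested. Of these, 4 were called higher in the Hep3B lineage and 3 in the Huh7 lineage, against 4.14% and 2.68% of all tested genes. PCK1, G6PC and HK1 were called with any library left out, while FBP1, PKLR, ARG1 and SLC2A2 were not without Huh7 (adjusted p from 0.0842 to 0.41).

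Drug-metabolizing enzymes split in a similar way, and some families fell on 1 side. Of 33 measured cytochrome P450 genes, 14 were tested, and 3 were called in each direction. Over all tested genes, 4.14% were called higher in the Hep3B lineage and 2.68% in the Huh7 lineage. CYP2C18 stood at 0.691 and 0.215 CPM against 177 and 85.4, and CYP2S1 at 0.345 and 0.431 CPM against 87.5 and 155 (edgeR adjusted p = 0.00397 for both). CYP2B6, a xenobiotic-induced enzyme, stood at 12.8 CPM in Hep3B and 304 in Hep3B-C, against 1.10 and 0.461 (adjusted p = 0.0167). Among 51 measured conjugating and alcohol-oxidizing enzymes, 36 were tested. Of these, 8 were called higher in the Hep3B lineage and 3 in the Huh7 lineage, beside the same shares of all tested genes. GSTT1 had 69 and 367 counts against 0 and 0 (edgeR adjusted p = 0.00634), and MGST1, a membrane-bound glutathione transferase, 427 and 1182 against 0 and 15 (adjusted p = 0.0128). GSTM2, GSTM3 and GSTM4 stood higher in both Huh7 libraries, GSTM3 at 36.3 and 19.8 CPM against 233 and 151 (adjusted p = 0.0328) and GSTM4 at 8.98 and 25.4 against 148 and 115 (adjusted p = 0.0614). GSTM genes are near-identical to each other, so their single values are uncertain. MGST1 was not called without Huh7 (adjusted p = 0.0867), nor were GSTM2 and GSTM3 without Huh7 or Huh7-C (adjusted p from 0.165 to 0.611).

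Among 35 measured NRF2 targets and aldo-keto reductases, 29 were tested. Of these, 2 were called higher in the Hep3B lineage and 3 in the Huh7 lineage, against 4.14% and 2.68% of all tested genes. AKR1B1, aldose reductase, had 1 and 0 counts against 285 and 116 (edgeR adjusted p = 0.00616). AKR1C3, which reduces steroids, had 1 and 11 counts against 688 and 430 (adjusted p = 0.00732), and CBR1, a carbonyl reductase, 1 and 14 against 295 and 241 (adjusted p = 0.0152). These 3 were called with any library left out. AKR1C2 had 0 and 37 counts against 484 and 283 (adjusted p = 0.0834), and AKR1C1 0 and 301 counts against 533 and 45, so that AKR1C1 was lower in Hep3B than in Huh7 but higher in Hep3B-C than in Huh7-C (edgeR adjusted p = 0.847). AKR1C4 had 1 and 17 counts against 7 and 5. Of these 4 AKR1C genes, 2 passed the thresholds in both pairs and 1 was called. They share near-identical sequence, so their single values are uncertain. ABCC3, a basolateral export pump, stood at 52.1 and 73.0 CPM against 1.76 and 1.15 (edgeR adjusted p = 0.00624), and lost the call without Huh7 (0.0685) or Huh7-C (0.114).

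Of 28 measured liver transporters, 21 were tested. Against 4.14% and 2.68% of all tested genes, 5 were called higher in the Hep3B lineage and 2 (SLC2A2 and SLC2A3) in the Huh7 lineage. ABCB1, the drug pump P-glycoprotein, stood at 37.6 and 46.3 CPM against 1.98 and 1.38 (edgeR adjusted p = 0.00886), and SLC22A9, an organic anion transporter, at 36.6 and 54.1 CPM against 0.661 and 0.231 (adjusted p = 0.00559). Without Huh7-C, neither was called (edgeR adjusted p = 0.204 and 0.0564), nor was ABCB1 without Huh7 (0.13). In iron and zinc handling, 18 of 20 measured genes were tested. Of these, 3 were called higher in the Hep3B lineage and 2 in the Huh7 lineage, beside the same shares. TMPRSS6 and HFE2, which control the iron hormone hepcidin, stood at 67.0 and 41.8 CPM against 2.20 and 0.692 (edgeR adjusted p = 0.00812) and at 11.7 and 9.91 CPM against 0.441 and 0.231 (adjusted p = 0.0147). BMP6, the ligand that induces hepcidin, had 0 and 1 counts against 235 and 129 (adjusted p = 0.00559). BMP6 was called with any library left out, TMPRSS6 was not without Huh7-C (0.175), and HFE2 was not without Huh7 (0.268) or Huh7-C (0.419).

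**Figure D4:**
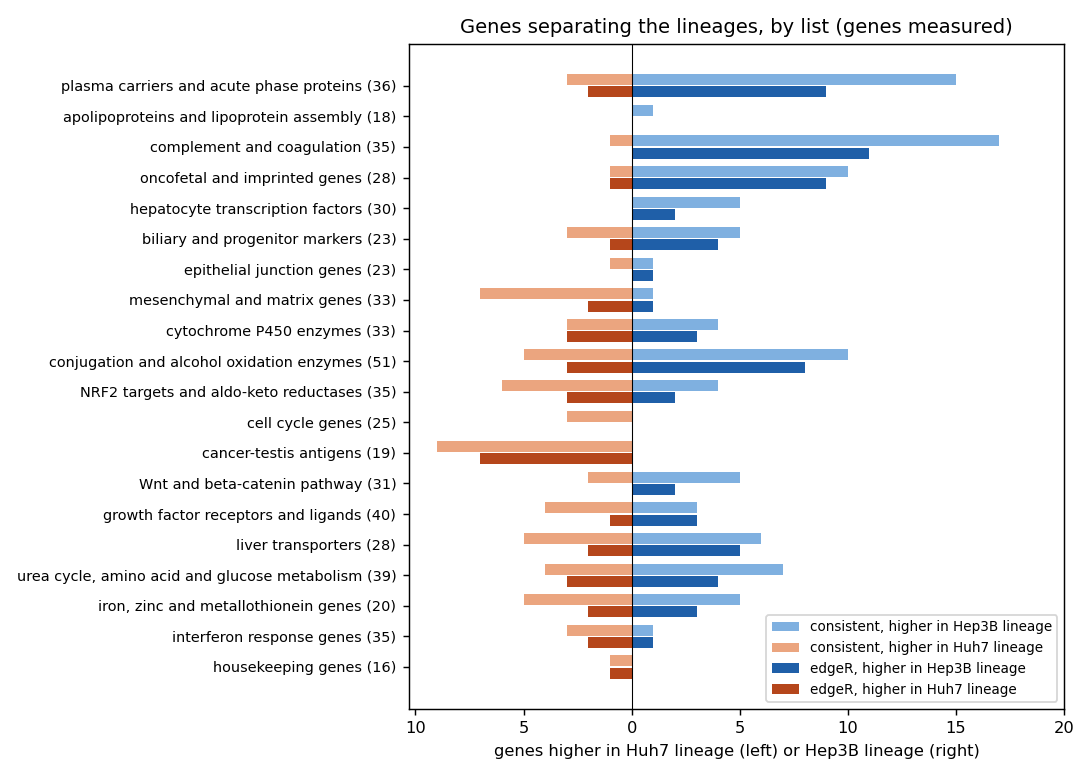
Number of genes per list higher in the Hep3B lineage (bars to the right) or the Huh7 lineage (bars to the left), with genes measured in parentheses. Light bars count genes past the thresholds in both pairs and dark bars edgeR calls, which reach 11 and 0 for complement and coagulation and 0 and 7 for cancer-testis antigens. Over all tested genes, edgeR called 4.14% higher in the Hep3B lineage and 2.68% in the Huh7 lineage.

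Hepatocyte transcription factors drive many of the genes above. Of 30 measured factors, 28 were tested, and 2 were called, near the 6.82% of all tested genes. Both were higher in the Hep3B lineage, and 0 were called in the other direction (0 also at an unadjusted p under 0.05 and by DESeq2). FOXA1 stood at 149 and 45.5 CPM against 12.6 and 8.31 (edgeR adjusted p = 0.0316), and ONECUT2 at 442 and 118 CPM against 17.2 and 20.3 (adjusted p = 0.0169). The list's median log2 ratio was 0.41 and 0.30, beside 0.21 and -0.24 over all tested genes, and 0.43 and 0.04 after removal of the GC and length trends. FOXA1 and ONECUT2 were not called without Huh7 or Huh7-C (adjusted p from 0.384 to 0.672).

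Progenitor and epithelial markers pointed both ways. EPCAM stood at 514 and 177 CPM against 43.2 and 48.7 (edgeR adjusted p = 0.0408), PROM1, which encodes CD133, at 371 and 77.8 CPM against 25.1 and 20.3 (adjusted p = 0.0383), and SOX4, a developmental transcription factor, at 505 and 297 CPM against 7.49 and 11.3 (adjusted p = 0.00559). Of 23 measured biliary and progenitor markers, 16 were tested. Against 4.14% and 2.68% of all tested genes, 4 were called higher in the Hep3B lineage and 1 in the Huh7 lineage. That gene was CD44, a hyaluronan receptor, with 0 and 0 counts against 177 and 22 (adjusted p = 0.0167). KRT19, a bile duct keratin, had 212 and 88 counts against 1 and 7 (edgeR adjusted p = 0.0129). The paired simple-epithelium keratins KRT8 and KRT18 stood higher in both Huh7 libraries without passing (adjusted p = 0.239 and 0.336), KRT18 at 657 and 2584 CPM against 5004 and 7013. Among 23 junction genes, 19 were tested and 1 was called. It was ESRP1, an epithelial splicing factor, with 638 and 140 counts against 0 and 0 (edgeR adjusted p = 0.00593). Of 33 mesenchymal and matrix genes, 22 were tested. Of these, 1 was called higher in the Hep3B lineage and 2 in the Huh7 lineage, beside the same shares of all tested genes. THBS1, thrombospondin 1, stood at 983 and 355 CPM against 3.09 and 0.692 (adjusted p = 0.00435), and the receptor kinase AXL had 4 and 4 counts against 1114 and 853 (adjusted p = 0.00397). ESRP1, THBS1 and AXL were called with any library left out, and EPCAM, PROM1, SOX4, KRT19 and CD44 were not called without Huh7 (adjusted p from 0.16 to 0.807).

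RB1, a tumor suppressor that holds back entry into the cell cycle, was low in the Hep3B lineage. It had 4 and 4 counts against 83 and 125 (edgeR adjusted p = 0.0139). CCND1, cyclin D1, which acts through RB1, stood at 52.8 and 29.5 CPM against 255 and 322 (edgeR adjusted p = 0.0307). CDKN2A, which encodes p16, stood at 74.9 and 174 CPM against 56.0 and 54.7 (edgeR adjusted p = 0.378). RB1 and CCND1 were not called without Huh7 or without Huh7-C (edgeR adjusted p from 0.0558 to 0.502). Cell cycle genes gave 0 edgeR calls among 25 (1 at an unadjusted p under 0.05, higher in the Huh7 lineage, and 0 by DESeq2), with a median log2 ratio of 0.35 and -0.23. The stem-like median turned with scaling, to 0.0036 with TMM and 0.25 after removal of the GC and length trends.

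In the Wnt pathway, 2 of 26 tested genes were called, both higher in the Hep3B lineage, against 6.82% of all tested genes in either direction. DKK1, a secreted Wnt inhibitor, stood at 422 and 414 CPM against 58.0 and 40.1 (edgeR adjusted p = 0.0237), and the transcription factor TCF7L1 at 88.7 and 113 CPM against 11.5 and 11.3 (adjusted p = 0.0199). Among 29 tested growth factor genes, 3 were called higher in the Hep3B lineage and 1 in the Huh7 lineage, against 4.14% and 2.68% of all tested genes. FGFR2 had 297 and 30 counts against 1 and 2 (edgeR adjusted p = 0.0142) and the prolactin receptor PRLR 176 and 97 against 1 and 0 (adjusted p = 0.00564). IGFBP1, a liver-made binding protein of insulin-like growth factors, stood at 70.8 and 19.2 CPM against 3799 and 460.3 (adjusted p = 0.0189). Of 23 tested interferon response genes, 1 was called higher in the Hep3B lineage and 2 in the Huh7 lineage, beside the same shares. IRF7 was higher in the Hep3B lineage (10 and 39 counts against 0 and 0). IFIT5 (0 and 0 against 33 and 30) and TAP1 (7 and 7 against 86 and 60) were higher in the Huh7 lineage. FGFR2 and PRLR were called with any library left out. DKK1, TCF7L1, IGFBP1, IRF7, IFIT5 and TAP1 were not called without Huh7 (edgeR adjusted p from 0.109 to 0.645).

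Housekeeping and ribosomal genes served as a reference. Of 16 housekeeping genes, PGK1, a glycolytic enzyme on the X chromosome, was called higher in the Huh7 lineage, at 358 and 289.8 CPM against 2598 and 2424 (edgeR adjusted p = 0.035, and 0.493 without Huh7). None was called in the other direction (0 also at an unadjusted p under 0.05 and by DESeq2). Of 81 cytosolic ribosomal protein genes, 14 passed the thresholds in both pairs, each higher in the Huh7 lineage, against 6.54% of all joined genes. By that rule this reference set leaned to the Huh7 lineage. Of the 78 tested, edgeR called 0 (4 at an unadjusted p under 0.05 and 2 by DESeq2, all higher in the Huh7 lineage). The family's median log2 ratio was -1.04 in the parental and -0.52 in the stem-like pair, and -0.0036 and -0.29 after removal of the GC and length trends. RPL5 stood at 1065 and 646 CPM against 3994 and 4233 (edgeR adjusted p = 0.102).

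Levels of different genes were compared per length, as RPKM (CPM per kilobase), computed with the gene lengths deposited with the counts. Among genes past the thresholds in both pairs, the 6 with the highest RPKM in the Hep3B direction were ALB, APOA2, AHSG, H19, TF and MDK. ALB reached 8704 and 8227 RPKM in the Hep3B lineage and APOA2 9120 and 20045 RPKM, against 47.3 and 119 RPKM and 2704 and 1038 RPKM in the Huh7 lineage. In the Huh7 direction they were KRT18, RPL5, RPLP1, RPS3, RPS4X and TMSB10, an actin-binding peptide. TMSB10 reached 5468 and 4441 RPKM in the Huh7 lineage and 1294 and 1069 RPKM in the Hep3B lineage. MDK, the growth factor midkine, stood at 631 and 672 RPKM against 247 and 200.3 RPKM. Of these 12 abundant genes, edgeR called ALB and H19, and the other 10 had adjusted p from 0.0818 to 0.363.

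The lineage difference also varied by chromosome. The median log2 ratio of the 422 tested genes of chromosome 4 was 1.12 above that of all genes in the parental pair and 0.47 above it in the stem-like pair, and 0.61 in both after removal of the GC and length trends. Chromosome 8 (397 genes) stood 0.63 and 0.20 above. The X chromosome (382 genes) stood 0.69 and 0.57 below it, chromosome 10 (453 genes) 0.36 and 0.62 below, and chromosome 21 (112 genes) 0.42 and 0.49 below. Chromosome 11 (670 genes) stood 0.59 and 0.19 below. On the X chromosome 23 genes (6.02%) were called higher in the Hep3B lineage and 26 (6.81%) in the Huh7 lineage, against 4.14% and 2.68% of all tested genes. The albumin family genes called and the fibrinogen genes all lie on chromosome 4, in opposite directions. These shifts are descriptions over genes and were not tested.

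**Figure D5:**
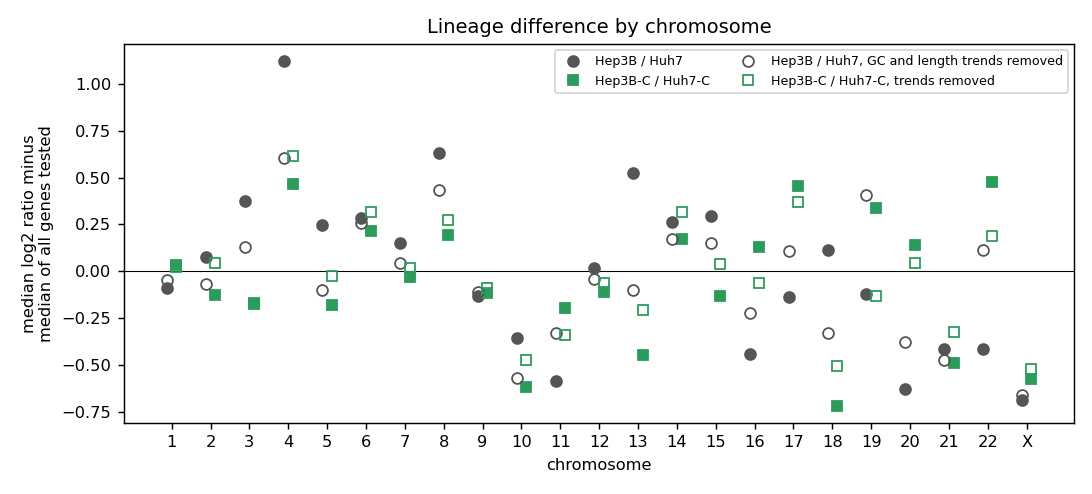
Median log2 ratio of the tested genes of each chromosome minus the median of all tested genes, for the parental pair (grey circles) and the stem-like pair (green squares), with hollow symbols after removal of GC and length trends. Chromosomes 4 (0.47 to 1.12), 6, 8 and 14 lie above 0 in every version, and chromosomes 9, 10, 11, 21 and X lie below 0 in each.

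Not every large difference between the lineages held in both states. The thresholds were passed in the parental pair by 6721 genes and in the stem-like pair by 4531, and 462 genes (2.82% of those joined) passed in both with opposite sign. Of these, 351 were higher in Hep3B than in Huh7 but lower in Hep3B-C than in Huh7-C, and 111 were the reverse. HDAC9, a histone deacetylase, had 155 counts in Hep3B and 3 in Huh7, but 6 in Hep3B-C and 303 in Huh7-C. NOSTRIN, an endocytic adaptor, had 72 and 7 counts in the parental and 7 and 85 in the stem-like pair. With 1 library per culture, a difference between the states has no replicate check.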

How the data were processed

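RNA was labelled as total RNA, with a standard Illumina library. The authors sequenced on an Illumina Genome Analyzer II, aligned with NextGENe to an NCBI human build older than GRCh38, and deposited raw counts per transcript for 4 libraries. The RPKM values they also used were not analysed here. Deposited counts were joined by gene identifier, and a gene missing from a file was set to 0. Of 16370 genes, 13917 were listed for both cell line pairs, 1563 only for Hep3B and Hep3B-C, and 890 only for Huh7 and Huh7-C. Gene lengths and most symbols were those deposited with the counts. Chromosomes, and symbols that were missing or turned into dates, came from RefSeq GRCh38.p14 (16262 identifiers matched). GC content came from GENCODE release 29 (97.9% of genes). Both annotations differ from the authors' build.

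CPM used the summed gene counts. Pair ratios had 0.5 added to each count. Lineages were tested with edgeR 4.0.16 (R 4.3.3; TMM, filterByExpr, quasi-likelihood) on 2 libraries each, with Benjamini-Hochberg adjustment over all genes tested, and alternatively with DESeq2 1.42.0. The 2 libraries of a lineage are labelled as different states (HCC and HCSC), not as repeats of 1 state, so p-values measure only the spread between these 4 libraries. Intervals and floors (3 counts per library) cover counting error only, by the exact binomial method. The fit was tested on simulated data for this comparison (11449 genes). Of 50 genes changed at each size, 10 were recovered at 4-fold, 44 at 16-fold, and 50 at both 64-fold and 256-fold, with 4 false calls. Simulated counts had the same spread in every library (common coefficient of variation 0.521), and only genes above a minimum count were changed. The simulation therefore gives no error rate for the real libraries, whose correlation within a lineage differed. Python 3.11.15, numpy 2.4.6, scipy 1.17.1 and pandas 2.3.3 were used.

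The members and the 24 gene lists were chosen with earlier results of these data known. Genes named per direction were the 12 with the largest ratio in the less different pair among those with at least 100 counts in each library of the higher lineage, the 6 with the highest RPKM, up to 4 per list, and the 6 opposite genes with the largest ratio in the less different pair, with AFP, ALB, RB1 and CDKN2A always given. Some genes that these rules take are not reported here. Any other gene named, and the HOX, MAGEA, fibrinogen, GSTM, AKR1C, neuronal intermediate filament and ribosomal families, were chosen after their values were seen. Counts per list with a library left out cover genes tested both over all 4 libraries and in the fit concerned. They were added after seeing the data, as were the counts by DESeq2 and by unadjusted p. Alternatives covered library scaling, the low-count filter, the number added, the thresholds, GC and length trends, genes listed in all files, the stem-like state as a block, and each library left out.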

Additional observations from a re-analysis of the deposited data

Results flagged for a closer look

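A difference between the lineages that had the opposite direction in the parental and the stem-like pair was found for 462 genes, past the thresholds in both. Each culture had 1 library, so the difference between the pairs was not tested. The 6 genes that rank first by the ratio in their less different pair are given with their counts in Hep3B, Hep3B-C, Huh7 and Huh7-C, and with the parental minus the stem-like log2 ratio, which is larger for some genes outside these 6. HDAC9, a histone deacetylase, had 155, 6, 3 and 303 counts and a difference of 11.77. IL8, a chemokine that attracts neutrophils, had 151, 0, 26 and 12 counts and a difference of 7.91, which rests on the count of 0. ZNF90, a zinc finger gene, had 31, 1, 2 and 15 counts and a difference of 7.77. NOSTRIN, an endocytic adaptor, had 72, 7, 7 and 85 counts and a difference of 7.53. LYPD6B had 17, 8, 1 and 76 counts and a difference of 7.46. FZD6, a Wnt receptor, had 58, 2, 8 and 27 counts and a difference of 6.99.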

How the results depend on the processing

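Calls by edgeR were 484 higher in the Hep3B lineage and 313 in the Huh7 lineage, and none of these 797 changed direction under any alternative run. DESeq2 gave 751 and 495, an FDR of 0.01 with at least 2-fold gave 135 and 75, genes listed in all 4 files gave 240 and 148, and removal of GC and length trends gave 509 in the Huh7 direction. Leaving out 1 library gave 151 to 1956 in the Hep3B direction and 126 to 1631 in the Huh7 direction (984 and 682 without Hep3B, 1956 and 1631 without Hep3B-C, 167 and 126 without Huh7, 151 and 131 without Huh7-C). With the stem-like state as a replicate block the numbers were 564 and 427. Deviations from the lineage means correlated by 0.0216 between cultures of the same state, so the state gave little pairing over all tested genes together. A shared change in single genes cannot be read from this value. At 4-fold in both pairs, 573 and 479 genes passed, against 950 and 1071 at 2-fold. The correlation of the pairs (Pearson 0.636, Spearman 0.381) was 0.533 by Pearson with 5 added, 0.598 and 0.304 with at least 50 counts in each pair, and 0.756 and 0.589 without GC and length trends. The cause of these differences was not tested, except that the stricter rules take fewer genes by construction. Of 140 named genes, 134 stayed past the 2-fold limit with TMM, 138 with 5 added and 130 without the trends, and none reversed. Most were picked for ratios past that limit in both pairs, so a reversal was unlikely from the start. In the simulation, which gave all libraries the same spread, depth and 2 libraries per lineage recovered 10 of 50 genes changed 4-fold. Smaller differences were mostly not detectable in that setting.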
